A study of Mus musculus with 4 samples.

Results

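The cytosolic ribosomal protein genes are described here in 4 mouse oral cancer cell lines. Members were the protein-coding entries whose GENCODE M21 symbol is Rpl or Rps followed by a digit, or Rpsa, Rplp0, Rplp1 or Rplp2. The 10 Rps6k kinases and 6 entries named as pseudogenes were left out, which gave 84 members of 34721 entries. They comprised 76 standard subunit genes, 45 of the large and 31 of the small subunit, and 8 others. Rpl13, a large subunit gene, had no entry, so the counts and shares do not include it. The 8 others were the paralogs Rpl3l, Rpl7l1, Rpl22l1, Rpl36al, Rpl39l and Rps27l, the retrocopy Rps27rt, and Rps19bp1, which encodes a protein that binds RPS19 and is not itself a subunit. The check of the label held: the standard subunit genes were all among the 500 most abundant protein-coding genes of every line.

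The lines came from 2 C57BL/6 mice in which oral tumors had been induced with the carcinogen 7,12-dimethylbenzanthracene (DMBA). AOC3 was isolated from the primary oral tumor of mouse 3 and AOC3-LN from its cervical lymph node metastasis, and AOC11 and AOC11-LN are the same pair from mouse 11. The cells had been passaged once under the skin of mice before the lines were established, and fibroblasts had been depleted with a kit. All 4 were untreated cultures, and each line is 1 RNA library, so no level has a replicate error and the age of the animals was not used here. Abundance is given in FPKM, the fragments of a gene scaled by transcript length and library size. Unless stated otherwise, 4 values in a row belong to AOC3, AOC3-LN, AOC11 and AOC11-LN, in that order. The steps between low values placed the libraries at an estimated 28316000 to 33884000 fragments, so that 1 fragment on a transcript of 1000 bases was worth 0.0355 to 0.0418 FPKM. All 8 epithelial markers were expressed, with a summed level of 3186 to 3729 FPKM. None of the 8 fibroblast, 5 T cell or 4 endothelial markers passed the filter, and their sums reached 1.17, 0.0422 and 0.392 FPKM at most. Among 6 macrophage markers only Cd68 and Csf1r passed, the summed level was 9.29 to 27.0 FPKM, and Adgre1 was at 0 in every line.

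Ribosomal proteins coat the ribosomal RNA of the small subunit, which decodes messenger RNA, and of the large subunit, which joins amino acids. The cell makes them in near equal numbers, and their messenger RNAs are among the most abundant of any growing cell. Most of these messenger RNAs start with a run of pyrimidines, the terminal oligopyrimidine or TOP motif, through which mTORC1 and the RNA-binding protein LARP1 control their translation. Tumor cells often make more ribosomes, and the transcription factor Myc drives many of the genes involved.

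RefSeq promoter sequence on GRCm38.p6 was matched by symbol for 64 members, 56 of them standard subunit genes. Those without one included Rpl3, Rpl7, Rpl8, Rpl17, Rpl21, Rpl23a, Rpl29, Rpl30, Rpl32, Rpl36, Rplp1, Rps14, Rps20, Rps27a and Rps29. The windows below hold 15 bases before and 15 bases from the annotated start, on the transcribed strand, and the longest run of C and T is in capitals. They are shown because these genes were the highest or lowest members in the comparisons that follow, were the most abundant (Rpl41 and Rplp0), or had the longest run (Rpl7a).
Rpl13a (chr7:45128731-45128760, minus strand): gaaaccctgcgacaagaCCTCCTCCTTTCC
Rpl27a (chr7:109519180-109519209, plus strand): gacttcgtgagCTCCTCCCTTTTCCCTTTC
Rpl28 (chr7:4792950-4792979, plus strand): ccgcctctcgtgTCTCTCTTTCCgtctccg
Rpl15 (chr14:18270972-18271001, minus strand): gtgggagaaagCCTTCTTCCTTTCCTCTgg
Rps18 (chr17:33955651-33955680, minus strand): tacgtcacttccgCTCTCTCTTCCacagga
Rpl7a (chr2:26910792-26910821, plus strand): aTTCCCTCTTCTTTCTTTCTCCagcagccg
Rpl41 (chr10:128549154-128549183, minus strand): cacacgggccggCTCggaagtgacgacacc
Rplp0 (chr5:115559452-115559481, plus strand): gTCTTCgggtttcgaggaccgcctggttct
A run of at least 8 pyrimidines stood in this window in 22 of 56 standard subunit genes (39.3%), against 1930 of 16522 protein-coding genes (11.7%). The share was 43.8% in 16 other messenger RNAs of the TOP class and 13.0% in 69 mitochondrial ribosomal protein genes. Annotated starts can lie some bases away from the base where transcription begins, and a window without a long run says only that these letters are not in it. Rpl13a and Rpl27a, both among the highest members in AOC11-LN, and Rpl15 and Rps18, both among the lowest, had runs of 13, 19, 17 and 11 pyrimidines. Other genes at the same ends had short runs, with 5 in Rps16 among the highest and 6, 6 and 2 in Rpl6, Rps27rt and Rpl7l1 among the lowest. The RefSeq starts of Rpl15 and Rps18 lay 405 and 336 bases from the GENCODE starts.

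Ribosomal protein genes made up 13.2%, 15.5%, 16.3% and 17.9% of summed FPKM in the 4 lines. The share was lowest in AOC3 and highest in AOC11-LN, and in both mice it was higher in the lymph node line. Over nuclear protein-coding genes with transcripts of at least 400 bases the order of the lines was the same, from 16.9% in AOC3 to 21.3% in AOC11-LN. The mitochondrially encoded share, which is part of the total, ran the other way, at 7.22%, 5.16%, 4.17% and 3.73%. The median level of the 76 standard subunit genes was 1021, 1127, 1277 and 1456 FPKM. By FPKM, AOC11-LN was the highest of the 4 lines for 52 of these genes and AOC3 the lowest for 49. How often this held over all entries was not counted. Among the 100 most abundant protein-coding genes, 50, 52, 57 and 62 were members in the same order of lines.

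**Figure D1:**
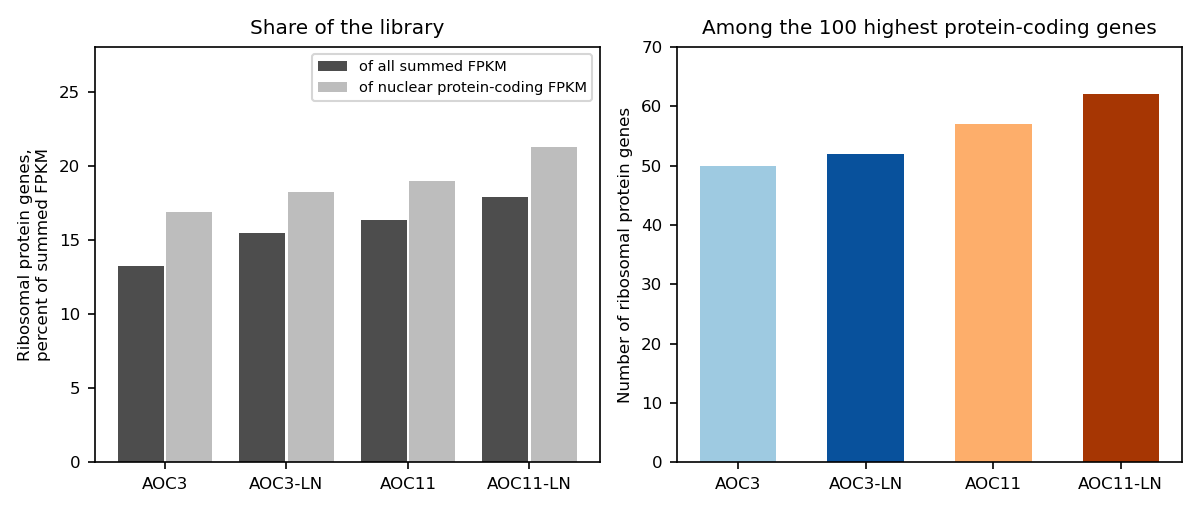
Left, the share of summed FPKM (percent) taken by the ribosomal protein genes in each line. Dark bars are the 84 members over all entries. Light bars count only nuclear protein-coding genes with transcripts of at least 400 bases, and only members that long. Right, how many members were among the 100 most abundant protein-coding genes. Each bar is 1 library, and both measures are lowest in AOC3 and highest in AOC11-LN.

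Levels of the standard subunit genes lay within about 1 order of magnitude. On the log2 FPKM scale their standard deviation across genes was 0.62, 0.66, 0.59 and 0.58 in the 4 lines. Rpl41, which encodes a very short basic peptide of the large subunit, was the most abundant member in every line, at 4764, 5773, 3019 and 3867 FPKM. Both AOC11 lines were below both AOC3 lines for this gene, and its log2 difference between the mice was 0.22 with quantile normalization and 0.62 without. Rplp0, the base of the ribosomal stalk, followed at 3356, 4231, 2999.8 and 3367 FPKM, and Rps2, a small subunit protein near the mRNA entry channel, at 2851, 3443, 2877 and 3207 FPKM. Rplp1 and Rpl32 completed the 5 highest means. At the other end, Rpl39, a small protein lining the exit tunnel, had the lowest mean, with 423, 508, 602 and 590.2 FPKM. Rpl37a, Rps20, Rpl24 and Rps13 were the next lowest, with means of 637, 691, 693 and 694 FPKM. The order of the 76 genes was most alike within a mouse. Across these 76 genes the correlation of log2 FPKM was 0.975 for the pair of mouse 3 and 0.878 for the pair of mouse 11, and it ran from 0.834 to 0.853 for the 4 pairs of lines from different mice. The genes are not independent replicates, and all pairs share transcript length and annotation.

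**Figure D2:**
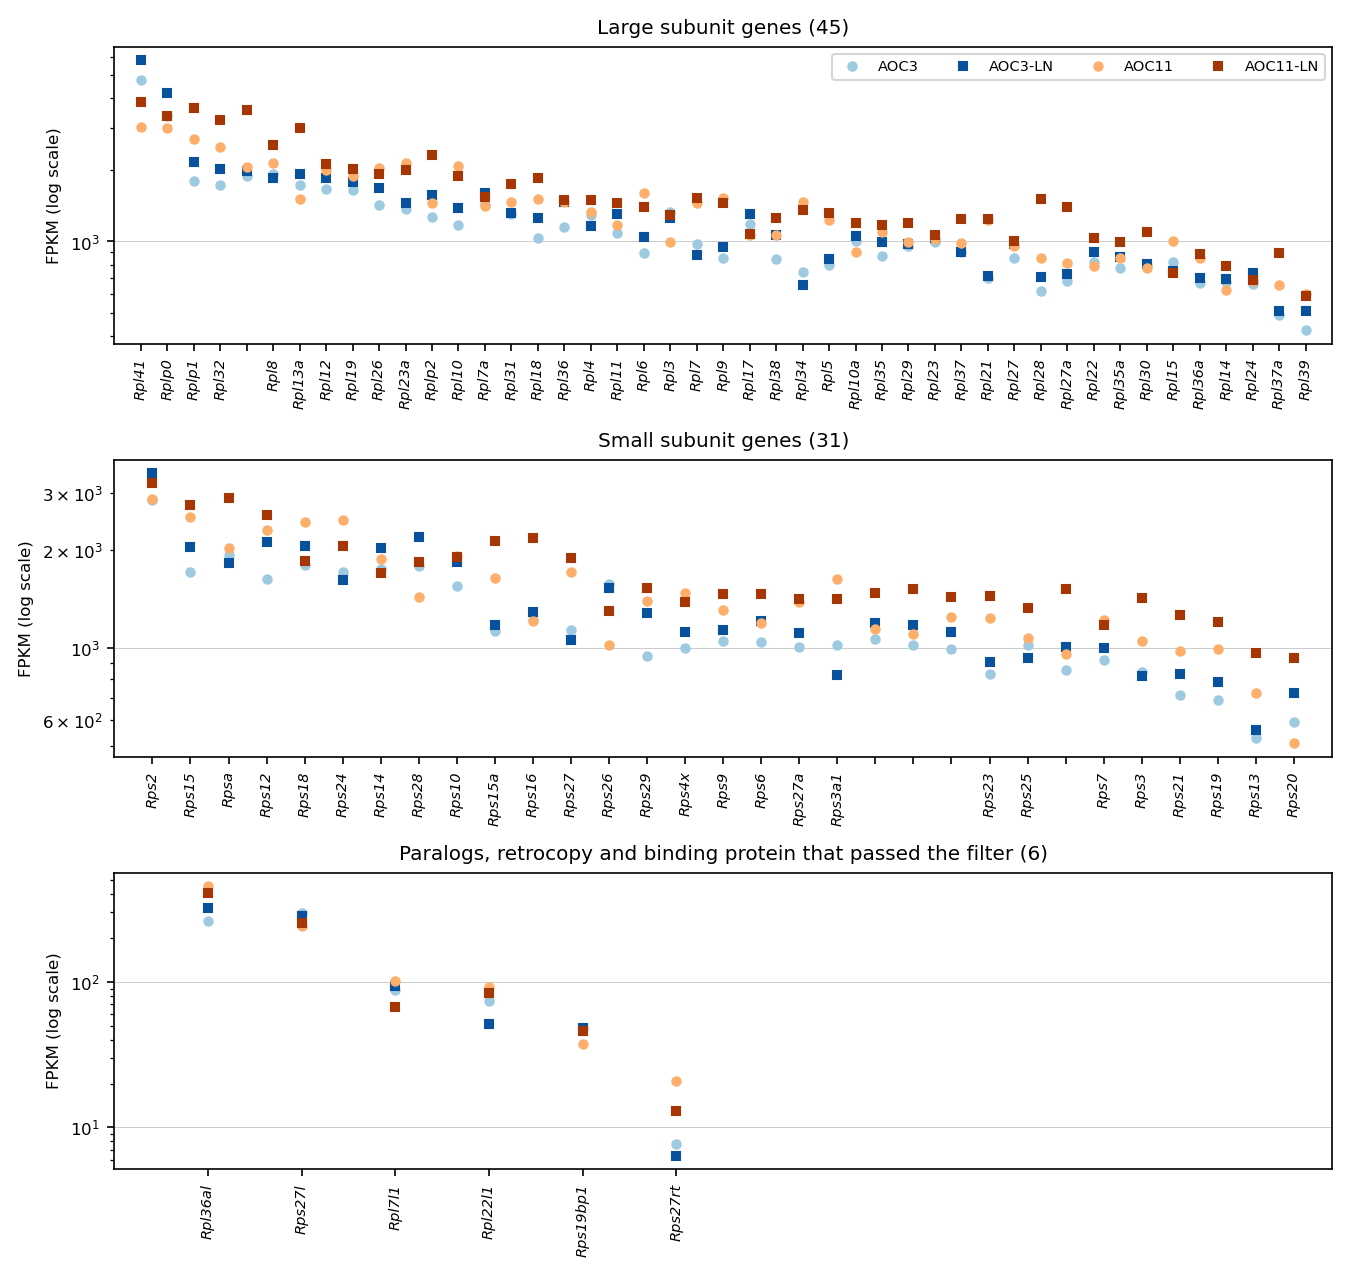
FPKM (log axis) of each ribosomal protein gene that passed the filter in the 4 lines, 1 point per library, with genes ordered by mean FPKM within the large subunit, the small subunit and the other members and a few left unnamed. Rpl41 is highest and Rpl39 lowest among the standard subunit genes by mean, and the paralogs lie below 460 FPKM.

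The ribosomal stalk recruits and activates translation factors. Rplp1 stood at 1802 and 2161 FPKM in the AOC3 lines and at 2703 and 3658 in the AOC11 lines, so the mice did not overlap. Its partner Rplp2 was at 1271, 1571, 1457 and 2305 FPKM, where the mice overlapped and each lymph node line was above its primary line. Rpl12, which binds beside the stalk base, was at 1655, 1848, 1999 and 2112 FPKM. All 4 stalk genes were thus higher in AOC3-LN than in AOC3 and in AOC11-LN than in AOC11 by FPKM. Rpl5 and Rpl11 form with 5S ribosomal RNA a particle that also binds MDM2 and so links ribosome assembly to p53. Rpl5 was at 793 and 841 FPKM in the AOC3 lines and at 1233 and 1312 in the AOC11 lines. Rpl11 was at 1090.3 and 1309 FPKM against 1168 and 1448, and its mice overlapped. Of 8 proteins at the exit tunnel or its rim, 7 had a lower mean in the AOC3 lines than in the AOC11 lines after normalization. Of 9 at the decoding site or mRNA channel 6 did. In the same comparison 63 of 82 members and 6970 of 14165 entries were lower, so these counts are not particular to the regions. The 4 X-linked members, Rpl10, Rpl36a, Rpl39 and Rps4x, were all lower in the AOC3 lines, with a median log2 difference of -0.26, while the 340 other protein-coding genes of the X chromosome had a median of -0.06.

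The first comparison asked how the lines of the 2 mice differ. Values were log2(FPKM + 1) after quantile normalization over all entries, 14165 entries and 82 members passed a filter of at least 1 FPKM in at least 1 line, and log2 differences past 1 in either direction were counted. Rpl3l, at no more than 0.0804 FPKM, and Rpl39l, at 0 in every line, did not pass. Both are known from striated muscle and testis rather than epithelium. The median difference of the members, AOC3 lines minus AOC11 lines, was -0.20, with 19 of 82 above 0, where the median of all entries was 0.01 and 50.8% were above 0. This median was -0.33 without quantile normalization and -0.13 with normalization over protein-coding genes only. With both AOC11 lines above both AOC3 lines there were 41 members, against 26.7% of all entries, and 9 were ordered the other way, against 26.3%. Only 1 member passed the threshold, the retrocopy Rps27rt, while 11.1% of entries did. With both lines of a mouse standing in for replicates, limma (Benjamini-Hochberg adjustment) called no member at an adjusted p under 0.05 and 29 of all entries (0.205%). The lowest adjusted p of a member was 0.163, for Rpl34. At an unadjusted p under 0.05 limma listed 15 members, 14 of them higher in the AOC11 lines, beside 18.7% of all entries. An exact permutation test of 2 lines against 2 cannot give a 2-sided p below 0.333.

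Among the members lower in the AOC3 lines, Rpl34, a large subunit protein, was at 747, 654, 1468 and 1358 FPKM. Both AOC11 lines were about equally high, and the mean FPKM was 2.02 times that of the AOC3 lines. On the normalized log2 scale the difference was -0.81 with a standard error of 0.20, and without quantile normalization it was -1.01, past the threshold. Rplp1 differed by -0.70. Rpl28, a large subunit protein, was at 619 and 708 FPKM against 855 and 1502 (-0.65), and here AOC11-LN stood well above AOC11. Rpl21, also of the large subunit and mutated in a hereditary hair loss, was at 702 and 714 FPKM against 1228 and 1239.8 (-0.63). Its levels were nearly equal within each mouse and 1.74 times higher in the AOC11 lines. Rps15a and Rps27 followed at -0.62 and -0.61, and Rpl32, Rpl9 and Rps3a1 at -0.60, -0.59 and -0.58.

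After normalization 16 of the 76 standard subunit genes were higher in the AOC3 lines, against 50.8% of all entries. Rps26, a small subunit protein at the mRNA exit site whose gene is mutated in Diamond-Blackfan anemia, was at 1572, 1526, 1019.6 and 1301 FPKM. The groups did not overlap, and the difference was 0.51 (standard error 0.17, limma adjusted p = 0.225). Rps28, another small subunit protein close to the messenger RNA, was at 1781 and 2199 FPKM against 1439 and 1833, a difference of 0.44 on the normalized log2 scale. Rpl17 differed by 0.36 and Rpl3 by 0.34. Rpl3, which reaches toward the peptidyl transferase center, was at 1336 and 1256 FPKM against 998 and 1296. Rps19bp1 completed the 5 highest, at 47.8 and 48.4 FPKM against 37.3 and 46.2, a difference of 0.25. Each of these 5 genes, like those named as lower above, kept its direction under the 4 scalings tried. Over all 82 members, 58 were lower and 12 higher in the AOC3 lines under every scaling, and 12 changed sign. How many of all entries kept their sign under every scaling was not counted.

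**Figure D3:**
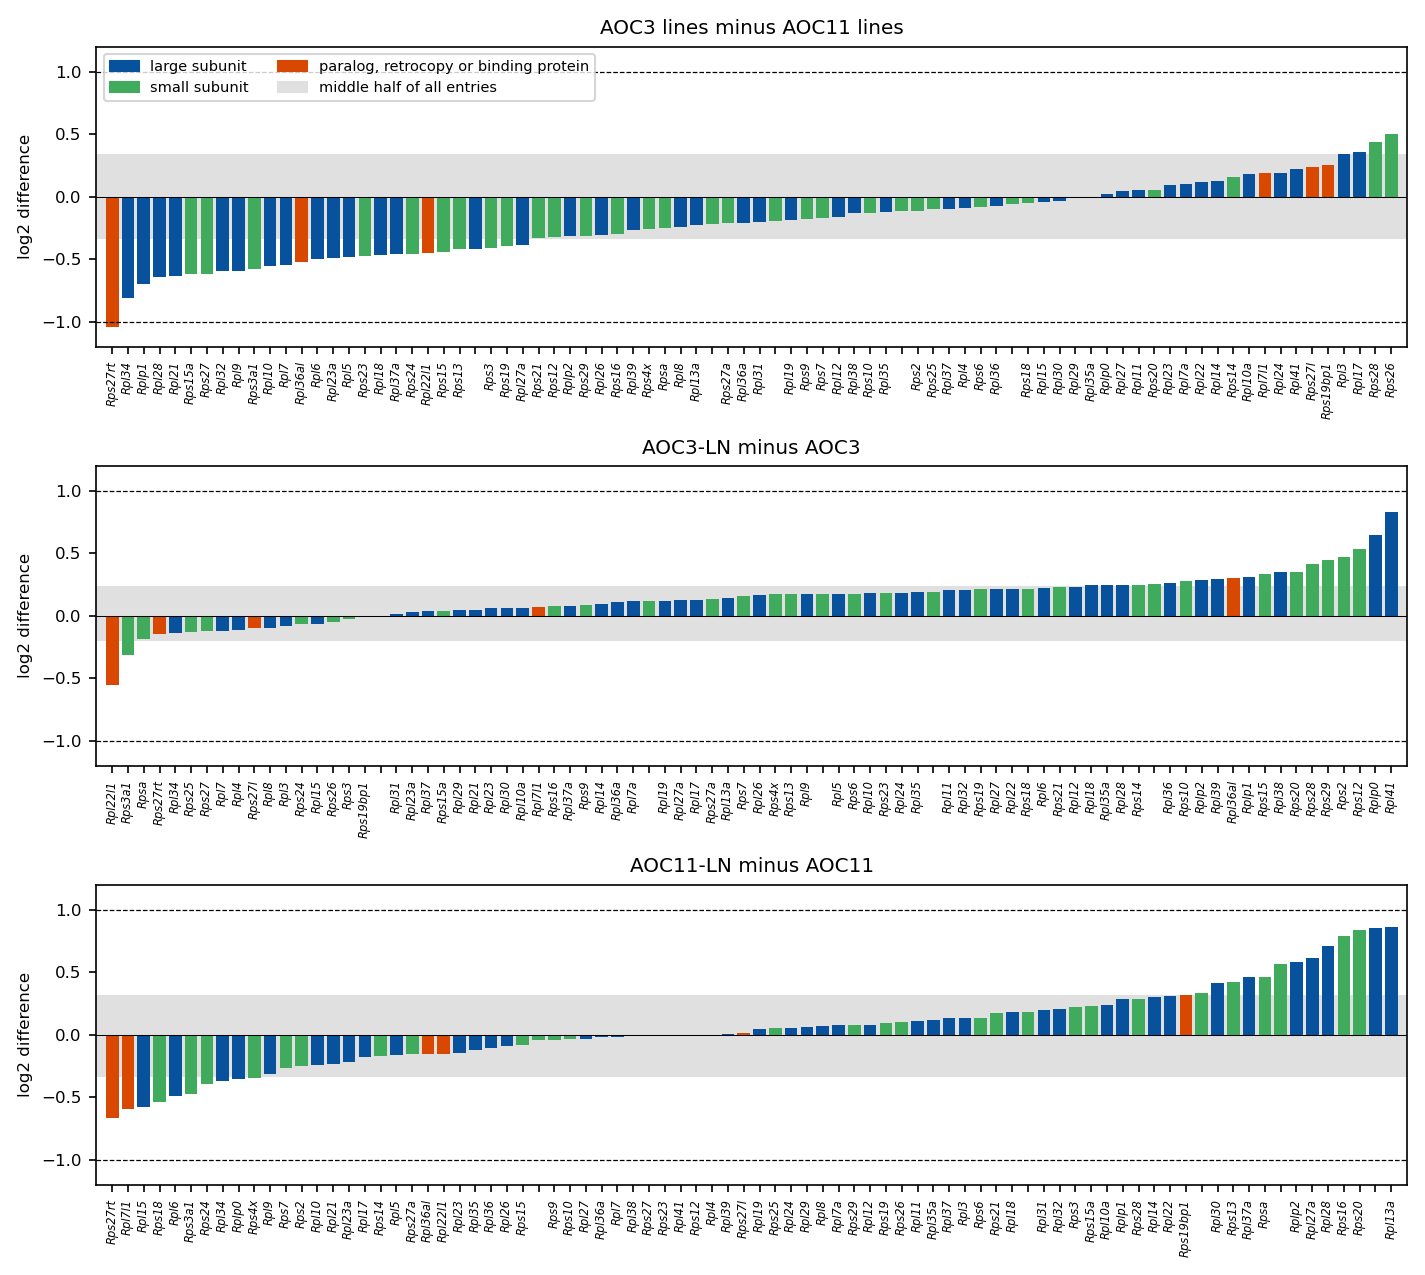
log2 difference of each of the 82 ribosomal protein genes in the 3 comparisons, sorted from lowest to highest, with quantile-normalized log2(FPKM + 1) values; the gray band is the interquartile range of all 14165 entries and the dashed lines mark the threshold of 1. Most bars lie below 0 for the AOC3 lines minus the AOC11 lines and above 0 for AOC3-LN minus AOC3, and only Rps27rt passes the threshold.

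The second comparison set the lymph node line of mouse 3 against its primary line. With 1 library on each side there is no test. The median difference of the members, AOC3-LN minus AOC3, was 0.16, and 64 of 82 were above 0, against a median of 0.02 and 53.0% of all entries. The number above 0 was 65 without quantile normalization, 74 with median scaling and 48 with normalization over protein-coding genes only. With median scaling the members' median was 0.25, and that of all entries was 0.05. With normalization over protein-coding genes only these medians were 0.06 and 0.02, so the members lay close to the entries there. Under that scaling 23.0% of entries were higher in both lymph node lines, and 29.8% were higher in AOC3-LN and lower in AOC11-LN. No member passed the threshold, while 5.53% of entries did. By FPKM, 62 of the 76 standard subunit genes were higher in AOC3-LN, by a median of 1.11-fold. On this scale 22.9% of all entries were higher in both lymph node lines, and 21.8% were higher in AOC3-LN and lower in AOC11-LN. Without quantile normalization the median log2 difference was 0.14 over the members and -0.03 over all entries. The 5 highest normalized differences were those of Rpl41, Rplp0, Rps12, Rps2 and Rps29. The quantile step enlarged those of the 3 most abundant members. Rpl41 differed by 0.83, but by 0.28 without that step, and its FPKM was 1.21 times higher in AOC3-LN. Rplp0 went from 0.65 to 0.33 and Rps2 from 0.47 to 0.27 in the same way. Rps12, a small subunit protein, went from 1634 to 2114 FPKM, a normalized difference of 0.53 and one of 0.37 without quantile normalization. Rps29, a small zinc-binding protein of the small subunit head, was at 943 and 1283 FPKM, a ratio of 1.36, and its difference was 0.45 with the quantile step and 0.44 without.

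With quantile normalization 17 of 82 members were lower in AOC3-LN, against 6531 of 14165 entries. The lowest was the paralog Rpl22l1, which lay outside the range of the standard genes at -0.55. Rps3a1, a small subunit protein, went from 1019 to 827 FPKM, a difference of -0.31. Rpsa, which encodes the laminin receptor protein of the small subunit, had -0.18 and was above 0 with median scaling. Rps27rt and Rpl34 followed at -0.14 each. Chromosome 3 carries Rpl22l1, Rps3a1, Rpl34 and Rps27, and all 4 were lower in AOC3-LN, although Rps27 changed sign with the scaling.

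The third comparison set AOC11-LN against AOC11. The median difference of the members was 0.03, with 43 of 82 above 0, beside a median of -0.02 and 47.7% of all entries. This count depended on the scaling, since 63 members were above 0 without quantile normalization, 62 with median scaling and 52 with normalization over protein-coding genes only. The corresponding medians were 0.16, 0.15 and 0.08, and those of all entries were 0.04, 0.03 and -0.02. No member passed the threshold, while 8.11% of entries did. By FPKM, 61 of the 76 standard subunit genes were higher in AOC11-LN, by a median of 1.16-fold. On this scale 22.9% of all entries were higher in both lymph node lines, and 29.6% were higher in AOC11-LN and lower in AOC3-LN. Differences were wider than in mouse 3. The interquartile range of the members ran from -0.15 to 0.22, and in AOC3-LN minus AOC3 it ran from 0.04 to 0.23. For all entries the same ranges were -0.33 to 0.31 and -0.19 to 0.23, so the wider spread is not particular to the members. Transcript length moved with this comparison and, over a narrower range, with AOC3-LN minus AOC3. Protein-coding genes outside the set had a median of 0.13 with transcripts of 400 to 800 bases and 0.17 from 800 to 1500. The median was 0.05 from 1500 to 3000 and -0.12 at 3000 bases or more. In AOC3-LN minus AOC3 the same groups had medians of 0.08, 0.04, 0.002 and -0.004. The part of length in the members' values was not tested.

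Of the 82 members, 43 were higher in AOC11-LN with quantile normalization, against 47.7% of all entries. Rpl13a, a large subunit protein that also silences inflammatory messenger RNAs, was at 1723, 1913, 1513 and 3002 FPKM. AOC11-LN stood apart from the other 3 lines, with 1.98 times the FPKM of AOC11 and a normalized difference of 0.86. Rps20, a small subunit protein of the subunit head, was at 593, 728, 509 and 934 FPKM (0.84). Rps16, a small subunit protein that contacts the P site, was at 1217, 1293, 1212 and 2179 FPKM (0.79). For these 3 genes AOC11-LN was the highest line. Rpl28 had 0.71, and Rpl27a and Rplp2 had 0.62 and 0.58. Rpl13a, Rps16, Rpl28, Rpl27a and Rplp2 all lie on chromosome 7.

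The members lower in AOC11-LN were led by Rps27rt at -0.67 and the paralog Rpl7l1 at -0.59. Rpl15, a large subunit protein, was at 817, 750.3, 1006 and 739.7 FPKM. It was highest in AOC11, and the difference between AOC11-LN and AOC11 was -0.58. Rps18, at the head of the small subunit, was at 1801, 2054, 2434 and 1847 FPKM (-0.54). Rpl6, a large subunit protein, was at 898, 1041, 1596 and 1397 FPKM (-0.49, and -0.19 without quantile normalization). Rplp0 had a normalized difference of -0.36 and one of 0.17 without quantile normalization, so its direction rests on that step. Rps2 changed sign in the same way, from -0.25 to 0.16.

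Both lymph node lines were higher than their primary line for 34 members, against 23.9% of all entries, and both were lower for 8, against 22.3%. Another 27 members were higher in AOC3-LN and lower in AOC11-LN, against 28.6% of all entries, and 8 the reverse, against 23.3%. This split depended on the scaling, a comparison added after the data were seen. Without quantile normalization 52 members were higher in both lymph node lines, against 22.9% of entries. Higher in AOC3-LN and lower in AOC11-LN were 13, against 21.8%. With median scaling the counts were 59 and 15, against 27.5% and 27.7%. With normalization over protein-coding genes only they were 28 and 19, against 23.0% and 29.8% of 11380 entries. The difference of the shifts, mouse 11 minus mouse 3, had a median of -0.12 over the members and -0.04 over all entries, and the members' median was 0.08 without quantile normalization. Among the highest were Rpl13a (0.72), Rps16 (0.71), Rpsa (0.65) and Rpl27a (0.49). Rpsa was at 1935, 1830.5, 2030.3 and 2882 FPKM. The difference of the shifts was lowest for Rplp0 (-1.01), Rpl41 (-0.83), Rps18 (-0.76), Rps2 (-0.72) and Rpl6 (-0.71). Rplp0 alone passed the threshold, against 15.6% of entries, and without quantile normalization its value was -0.17 and that of Rpl41 was 0.08. Those of Rps18 and Rpl6 were -0.59 and -0.41.

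**Figure D4:**
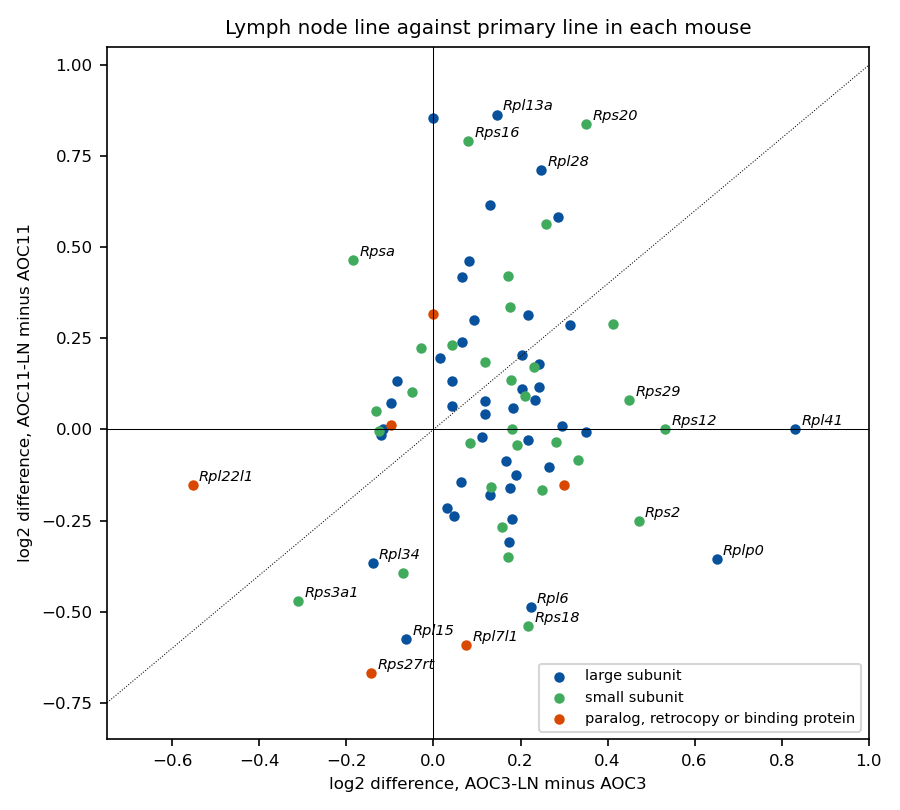
log2 difference of the lymph node line and the primary line of mouse 11 (vertical axis) against that of mouse 3 (horizontal axis) for 82 ribosomal protein genes, with quantile-normalized values and 1 point per gene; the dotted line marks equal shifts. The points spread further along the vertical axis, where Rpl13a reaches 0.86 and Rps27rt -0.67, and names are given for genes among the 5 highest and 5 lowest of each axis. The differences of all entries were also wider in mouse 11.

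The position of a member on the chromosomes moved with its differences. Each member was set beside the median difference of the other protein-coding genes on its chromosome. Across the 82 members Pearson's r was 0.60 for the AOC3 lines minus the AOC11 lines, 0.64 for AOC3-LN minus AOC3 and 0.62 for AOC11-LN minus AOC11, with Spearman's rho of 0.61, 0.57 and 0.67. Members on 1 chromosome share the same median, and each pair of values comes from the same libraries, so these are descriptions across genes. Without the 14 members of chromosome 7 the r values were 0.60, 0.65 and 0.53. On chromosome 7, 12 of 14 members were above 0 in AOC11-LN minus AOC11, with a median of 0.33, and the 826 other genes had 0.24. In the AOC3 lines minus the AOC11 lines 0 of these 14 were above 0, with a median of -0.35 beside -0.21. Both members on chromosome 14, Rpl15 and Rps24, were lower in AOC11-LN, with a median of -0.49 beside -0.45 for 373 other genes. On chromosome 5 the 5 members, Rpl5, Rpl6, Rpl9, Rpl21 and Rplp0, had a median of -0.31 beside -0.19 in the same comparison, although Rpl5, Rpl21 and Rplp0 changed sign with the scaling. The 4 members on chromosome 3 had medians of -0.60, -0.23 and -0.26 in the 3 comparisons, beside -0.36, -0.19 and -0.21 for 557 other genes. Both members on chromosome 18, Rpl17 and Rps14, were among those higher in the AOC3 lines, with a median of 0.26 beside 0.40. The DNA copy number of these chromosomes was not measured here. After the median of the chromosome was subtracted, an alternative chosen after the data were seen, the members' medians were -0.21, 0.12 and 0.04. These are close to the unadjusted medians of -0.20, 0.16 and 0.03.

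**Figure D5:**
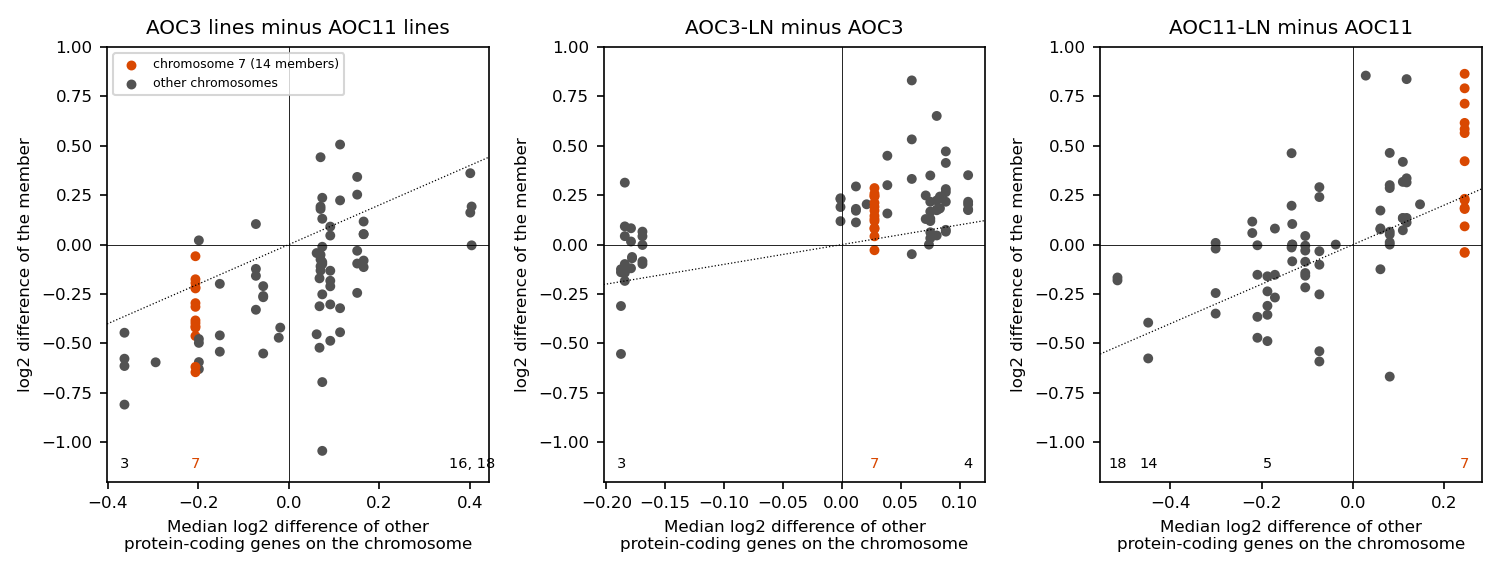
log2 difference of each of the 82 ribosomal protein genes (vertical axis) against the median log2 difference of the other protein-coding genes on its chromosome (horizontal axis), in the 3 comparisons; columns of points are chromosomes, some of which are numbered at the bottom, and the dotted line marks equality. Chromosome 7 (orange, 14 members) lies at -0.21, 0.03 and 0.24 on the horizontal axes.

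The paralogs and other members were below every standard subunit gene in mean level. Rpl36al, an autosomal copy of the X-linked Rpl36a, was at 262, 323, 455 and 407 FPKM, beside 669, 705, 854 and 884 for Rpl36a itself. Rpl7l1, a paralog found in assembling large subunits, was at 88.0, 94.2, 101 and 67.5 FPKM, and AOC11-LN was the lowest line. Rpl22l1, the paralog of Rpl22, was at 74.0, 51.0, 92.0 and 84.5 FPKM, and AOC3-LN was the lowest line. Rpl22 was at 819.5, 906, 791 and 1039 FPKM, and the order of the lines differed between the pair.

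Rps27l, a p53-responsive paralog of Rps27, was at 298, 282, 242 and 253 FPKM and varied little, with both AOC3 lines higher. Rps27 was at 1134, 1060.3, 1714 and 1885 FPKM, with both AOC11 lines higher. Normalized differences between the mice were 0.24 for Rps27l and -0.61 for Rps27. The coding sequences below, from GENCODE M21 transcripts without the stop codon, are shown because the retrocopy Rps27rt, the only member past the threshold, has the same coding sequence as Rps27. Capitals in Rps27l mark the bases that differ from Rps27.
Rps27 (chr3:90212728-90213615, minus strand, 4 coding exons): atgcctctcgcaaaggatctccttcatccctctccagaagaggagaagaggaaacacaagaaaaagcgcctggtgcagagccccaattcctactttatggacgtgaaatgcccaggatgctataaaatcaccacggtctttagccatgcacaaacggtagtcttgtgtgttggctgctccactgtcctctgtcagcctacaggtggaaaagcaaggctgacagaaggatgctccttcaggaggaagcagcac
Rps27l (chr9:66946175-66949354, plus strand, 4 coding exons): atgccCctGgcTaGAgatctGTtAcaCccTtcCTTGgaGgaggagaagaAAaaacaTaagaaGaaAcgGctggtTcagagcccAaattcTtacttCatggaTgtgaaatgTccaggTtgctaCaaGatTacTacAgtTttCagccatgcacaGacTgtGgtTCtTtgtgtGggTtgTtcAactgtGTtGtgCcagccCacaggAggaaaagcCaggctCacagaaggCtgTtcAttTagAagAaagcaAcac
Rps27l differed from Rps27 at 60 of 252 coding bases, an identity of 76.2%. Rps27rt, a single coding exon at chr9:114982456-114982707, differed at 0 of 252. Rps27rt was at 7.72, 6.36, 20.8 and 12.9 FPKM, and 89.5% of the 100-base stretches of its transcript, the length of 1 read, also occur in another gene. Its normalized difference between the mice, -1.04, and that of Rps27 have the same sign, and reads of the 2 genes cannot be told apart over the coding sequence. Its longest transcript is also under 400 bases, where FPKM values are least certain. Rpl36 is the only other member that short, at 1147, 1473, 1463 and 1492 FPKM.

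Copies elsewhere in the genome touched most of the set. Among the 76 standard subunit genes a median of 30.9% of the 100-base stretches of the longest coding transcript also occur in transcripts of other genes, mostly pseudogenes. The share was highest for Rpl10 (84.4%), Rpl36a (83.6%), Rps6 (83.6%) and Rps12 (81.4%). In the table, 245 pseudogene entries named for ribosomal proteins summed to between 3.44% and 3.68% of the members' FPKM. The 21 genes with at least 50% of shared stretches had median differences of -0.17, 0.17 and 0.00 in the 3 comparisons, beside -0.25, 0.17 and 0.08 for the other 55. A total of 29 standard subunit genes hold small nucleolar RNA genes within their bounds, which the cell releases from introns. Their medians were -0.27, 0.13 and 0.13, against -0.18, 0.18 and 0.00 for the 47 without. Exons of 18 standard subunit genes overlap another listed gene on the same strand and those of 18 overlap one on the opposite strand, and the default settings of TopHat2 and Cufflinks, which the authors used, do not take strand into account.

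Some ribosomal proteins are encoded by genes outside the symbol rule. Fau, which makes the small subunit protein eS30 fused to a ubiquitin-like protein, was at 739.6, 888, 889 and 1618 FPKM. It was highest in AOC11-LN, with a difference of 0.83 from AOC11. Rack1, a scaffold on the small subunit head, was at 977, 1224, 1247 and 1257 FPKM. AOC3 lines minus AOC11 lines, the differences of these genes were -0.43 and -0.04.

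Ribosomes are assembled in the nucleolus by factors that leave the finished particle. Of 60 assembly and biogenesis factors, 50 were higher in AOC3-LN than in AOC3, with a median of 0.30, and 17 were higher in AOC11-LN than in AOC11, with a median of -0.23. The AOC11-LN median stayed between -0.22 and -0.23 under the other 3 scalings, with 17 of 60 above 0 each time. For the members the same comparisons had medians of 0.16 and 0.03. Rrp12, a factor that matures both subunits, went from 10.4 to 17.5 FPKM in AOC3-LN (0.77), and Bysl, an assembly factor of the small subunit, from 20.7 to 31.3 FPKM (0.59). Gnl3, the nucleolar protein nucleostemin, was at 121 FPKM in AOC11 and 65.6 in AOC11-LN (-0.91). Nop53, which helps to release the large subunit, was among the 17 higher in AOC11-LN, at 89.6 and 185 FPKM (1.03), and was the only gene of the list past the threshold there. Between the mice the list had a median of 0.11, with Pno1 at -0.95 and Noc2l at 0.80 as its extremes. Dedicated chaperones of ribosomal proteins (8 genes) had medians of -0.34, 0.15 and -0.00 in the 3 comparisons. Among them Grwd1 (-0.94) and Heatr3 (-0.92) were lowest in the AOC3 lines, Ltv1 was higher in AOC3-LN (0.72) and lower in AOC11-LN (-0.51), and Aamp had -0.38 in AOC3-LN and Heatr3 -0.58 in AOC11-LN.

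Other components of translation, with and without the TOP motif, were read in the same way. The 25 other TOP messenger RNAs had medians of -0.04, 0.13 and 0.13 in the 3 comparisons, and 18 of 25 were higher in each lymph node line. Their AOC3-LN median was 0.06 without quantile normalization and 0.03, with 12 of 23 above 0, with normalization over protein-coding genes only. The 24 other translation factors had 0.05, 0.14 and -0.30, and 4 of 24 were higher in AOC11-LN. With median scaling their AOC3-LN median was 0.26. Pabpc1, the poly(A)-binding protein, was at 1888, 1951, 959.8 and 885 FPKM, a difference of 1.15, past the threshold and higher in the AOC3 lines. Npm1, a nucleolar chaperone, followed with 0.60. Eif4b had -0.34 in AOC3-LN and Eif3f 0.89 in AOC11-LN. Among the other factors, Etf1, the release factor, was at 105 FPKM in AOC11 and 57.9 in AOC11-LN (-0.86), and the cap-binding protein Eif4e at 238 and 150 (-0.71). Etf1 (0.67) and Eif1ax (-0.60) were the extremes between the mice, and Eef1e1 (0.60) and Eif1ax (0.54) in AOC3-LN.

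The regulators of TOP translation and of Myc were near 0 as a list, with medians of -0.01, 0.07 and 0.07 over 20 of 21 genes. A few of them passed the threshold. Mxd4, which opposes Myc, was at 1.38, 0.877, 3.55 and 13.5 FPKM, with -1.92 between the mice and 1.59 in AOC11-LN. Pdcd4, an inhibitor of the helicase eIF4A, was at 12.9, 5.11, 3.73 and 23.1 FPKM. Its lymph node differences were -1.09 and 2.29, opposite in the 2 mice. Deptor, an mTOR inhibitor, had -1.71 between the mice and Mycl -0.92 in AOC3-LN. Of 13 listed small nucleolar RNA host genes outside the members that passed the filter, 11 were higher in the AOC3 lines, against 50.8% of all entries. Their median was 0.45, while the 29 standard subunit genes that hold such RNA genes had -0.27. Snhg12 was at 168, 190.1, 27.6 and 37.6 FPKM (2.47), and Snhg3 differed by 1.85. In the lymph node lines the largest of these were Snhg3 (0.86) and Snhg15 (0.54) in AOC3-LN and Snhg20 (0.78) and Snhg3 (0.52) in AOC11-LN.

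Other large protein assemblies were taken as a further reference. The 78 mitochondrial ribosomal protein genes had medians of 0.03 (-0.04 without quantile normalization), 0.12 (0.23 with median scaling) and 0.11, with Mrps6 (1.54) and Mrps28 (-1.40) past the threshold between the mice. Their highest lymph node differences were Mrps23 (0.56) and Mrps26 (0.51) in AOC3-LN and Mrpl23 (0.77) and Mrps12 (0.65) in AOC11-LN. The 76 nuclear oxidative phosphorylation genes that passed had medians of 0.05, -0.03 and 0.16. Ndufb2 (-2.14) and Atp5s (-0.62) were their extremes between the mice, Atp5f1 (-0.50) and Ndufb3 (-0.41) in AOC3-LN, and Cox5b (0.61) and Uqcrh (0.60) in AOC11-LN. The 38 proteasome subunits had -0.09, 0.06 and -0.00, and the immunoproteasome subunits Psmb8 (-3.21) and Psmb9 (-2.26) stood out between the mice. Protein-coding genes outside the set with a mean of at least 200 FPKM, 378 in number and so the closest in abundance, had medians of 0.01, 0.05 and -0.02, where the members had -0.20, 0.16 and 0.03. The difference between these lists and the members was not tested.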

How the data were processed

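RNA from the 4 cultured lines was sequenced with 1 stranded mRNA library per line, as paired reads of 100 bases. The authors trimmed reads with Trim Galore, mapped them to mm10 with TopHat2 and deposited Cufflinks FPKM values on GENCODE M21, per the labels and methods. Gene models came from GENCODE M21 and start-site sequence from RefSeq (GRCm38.p6). To the deposited FPKM values 1 was added before taking log2, the columns were quantile-normalized over 34721 entries, and entries reaching 1 FPKM in any line were kept. Differences past 1 in either direction were counted. limma 3.58.1 in R 4.3.3 (lmFit, eBayes with trend, Benjamini-Hochberg) was fitted to the 2 lines of each mouse; as each group is 1 mouse, its p-values measure only the spread between these lines. On simulated lines with a log2 standard deviation of 0.15 between lines and 200 of 13282 entries changed 4-fold, limma recovered 200 with 8 false calls. No member differed 4-fold between the mice, so this cannot show whether differences as small as theirs would be called. Fragments per library were estimated from the steps of low FPKM values, 71.5% to 74.9% of which lay within 0.1 of a whole number. Python 3.11.15 with pandas 2.3.3 was used otherwise.

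Named genes were the 5 highest and 5 lowest members of each comparison and of mean FPKM, all paralogs, members with transcripts under 400 bases, stalk and 5S particle proteins, and the 2 largest differences of every other list; role groups and further examples were chosen after the values were seen. A few genes are counted but not reported here by name. The members and lists were chosen with earlier results of these data known. Alternatives were the scaling, pseudocount, filter, fold threshold and each line left out.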

Additional observations from a re-analysis of the deposited data

Results flagged for a closer look

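Opposite lymph node shifts of at least 0.2 in each mouse after quantile normalization, with the same signs under all 4 scalings, were seen for 2 members. How many of all entries met this rule was not counted. By any amount, 28.6% of all entries were higher in AOC3-LN and lower in AOC11-LN. Rpl6 had a log2 difference of 0.22 in AOC3-LN minus AOC3 and of -0.49 in AOC11-LN minus AOC11. Without quantile normalization the latter was -0.19, short of the minimum of 0.2. Rps18 had 0.22 and -0.54 in the same order. Each value rests on 1 library per line, and neither difference between the mice was tested.

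RPS10-NUDT3, a read-through entry that shares exons with Rps10 and is outside the symbol rule by its capital letters, was at 6.37 FPKM in AOC11-LN and at no more than 0.00688 FPKM in the other 3 lines. Rps10 itself was at 1547, 1843, 1922 and 1900.0 FPKM in AOC3, AOC3-LN, AOC11 and AOC11-LN.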

How the results depend on the processing

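In the 3 comparisons of lines the members' medians kept their sign under every alternative run, while the difference of the lymph node shifts did not. Without quantile normalization the members' median was -0.33 for the AOC3 lines minus the AOC11 lines with 2 members past the threshold and 23 at an unadjusted limma p under 0.05, 0.16 for AOC11-LN minus AOC11 and 0.079, against -0.12 with it, for the difference of the lymph node shifts, and its sign also differed between the other scalings, at -0.04 with median scaling and 0.05 with normalization over protein-coding genes alone. Median scaling gave 0.15 for AOC11-LN minus AOC11. Normalization over protein-coding genes alone gave 0.060 for AOC3-LN minus AOC3, and the entries past the threshold were 453 there and 712 in AOC11-LN minus AOC11, with 259 entries called by limma. A pseudocount of 0.1 gave 2627, 1443 and 2074 entries past the threshold in the 3 comparisons. At a fold threshold of 1.5 these were 3814, 1948 and 3482, with 9, 2 and 8 members. With no filter, limma called 0 entries and listed 5 members at an unadjusted p under 0.05, and a filter at 5 FPKM gave 50 entries. The number of members past the threshold between the mice was 0 without transcripts under 400 bases, 0 without paralogs and 0 between the lymph node lines only. Rps27rt was left out in the first 2 cases and fell short in the third; the cause of the other changes was not tested.

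Leaving out 1 line at a time gave 14 to 29 members above 0 between the mice, 0 to 1 past the threshold, 0 entries called by limma each time, and 0 to 10 members at an unadjusted p under 0.05. Without AOC3-LN that last count was 0, and without AOC3 it was 1. A line left alone in its group is assumed to vary like the other pair. With the site (primary or lymph node) as a replicate block, limma called 31 entries, no member at an adjusted p under 0.05, and 9 members at an unadjusted p under 0.05; the lines of the 2 mice share only the site label and are not paired animals. Every line is 1 library, which limits every value.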
